A study of Mus musculus with 6 samples.

Results

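Amino acid transporters, the membrane proteins that move amino acids and a few related compounds, were examined in sham and tail-suspended mouse hearts. The members were chosen by name, as every gene on the array whose symbol begins with Slc1a, Slc3a, Slc6a, Slc7a, Slc36a, Slc38a or Slc43a followed by a number. The rule found 62 of 28909 gene names, on 79 probes, and used no measured value. One of them, Slc7a6os, is by its name a gene on the opposite strand of Slc7a6 and not a carrier, which left 61 transporter genes. Total RNA of the cardiac muscle of 3 sham and 3 tail-suspended mice was measured on 6 Agilent mouse arrays in 1 colour. All mice were male C57BL/6 without a genetic change, and each array stands for 1 mouse. Tail-suspension, which lifts the hindlimbs off the floor to simulate microgravity, lasted 28 days, and sham mice were kept in the same space with the same feeding. The treatment protocol gives an age of 10 weeks at the start, whereas the sample labels give 11 weeks for every mouse.

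Amino acid carriers move amino acids across the plasma membrane or the lysosomal membrane, some by simple exchange and others driven by sodium, chloride or protons. Most carriers of the Slc7 LAT branch work only when bound to a heavy chain of the Slc3 family, which brings them to the cell surface. In heart muscle, glutamine, glutamate and branched-chain amino acids are fuels and precursors, while creatine and taurine, which 2 carriers of the Slc6 family import, are held at high concentration. Several carrier genes are known targets of the amino acid response, in which the kinase GCN2 and the factor ATF4 act when amino acids are scarce.

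The value of a gene was the processed intensity of its brightest probe, the brightness of the spot after background correction, and for tests its log2 level relative to the 75th percentile of that array. The percentile lay between 302 and 376, no spot was saturated, and 50.9% to 53.4% of probes were well above background. Only probes that reached this mark on all 3 arrays of sham, of tail-suspension or of both were tested. Differences are tail-suspension minus sham on the log2 scale, from a limma fit over all 28032 tested probes with adjusted p-values over all of them and a threshold of 0.05. All 8 cardiomyocyte markers, such as Myh6 and Tnnt2, were well above background on all 6 arrays. All arrays lay on 1 slide, where tail-suspension replicate 1 shared a row with the 3 sham arrays and the other tail-suspension arrays had a second row to themselves. Precision is limited by the number of arrays: for a single gene, the smallest two-sided p of an exact permutation test is 0.1.

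Of the 61 transporter genes, 32 were well above background on all 6 arrays, 8 on some of them and 21 on none. The families differed in how many members gave a signal. All 3 Slc43 genes and 9 of 11 Slc38 genes were well above background on all 6 arrays, against 6 of 19 in the Slc6 family, 4 of 10 light chains and 4 of 7 in the Slc1 family. Among those on no array were the probes of the transmitter carriers Slc6a2, Slc6a3, Slc6a4 and Slc6a11, of the epithelial carriers Slc6a14, Slc6a18, Slc6a19, Slc6a20b, Slc7a9 and Slc3a1, of the cystine carrier Slc7a11, and of Slc6a15, Slc7a2, Slc7a10, Slc7a12, Slc7a13, Slc7a14, Slc7a15, Slc36a3 and Slc38a8. The intensities of the 21 genes on no array lay between 2.80 and 13.8, and their level is known only as a bound. A further 5 genes gave a signal on some arrays but on all 3 of neither group, and were not tested. Slc6a12, the betaine and GABA carrier, was above background on no sham array and on 2 tail-suspension arrays, with intensities of 3.49, 4.04 and 3.14 in sham and 38.4, 4.08 and 76.9 after tail-suspension. Slc6a16 was above background on 2 arrays of each group, Slc6a7 on 2 sham arrays and 1 tail-suspension array, and Slc1a6 and Slc7a3 on 1 tail-suspension array each.

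**Figure D1:**
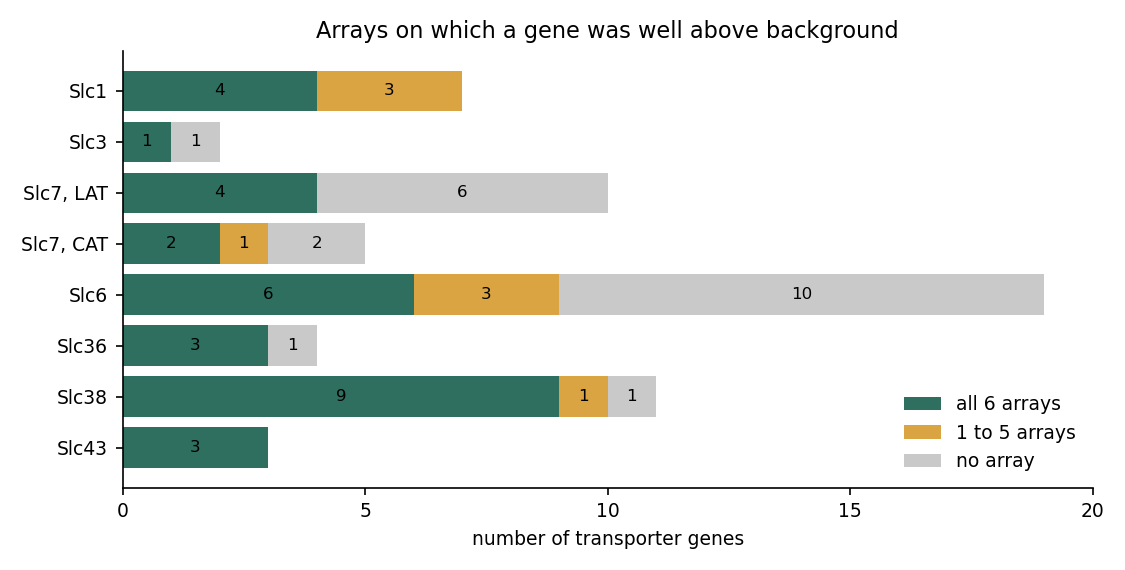
Number of transporter genes (horizontal axis) in each family that were well above background on all 6 arrays, on 1 to 5 arrays or on no array. In the Slc43 family all 3 genes and in the Slc38 family 9 of 11 were above background on all 6 arrays, whereas 10 of 19 Slc6 genes and 6 of 10 LAT light chains were above it on none.

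Among the 35 transporter genes tested, 7 had higher and 3 had lower levels after tail-suspension, and 25 did not pass the threshold. Of all 17137 genes tested, 10.6% passed as higher and 10.5% as lower, so 21.2% passed in either direction, beside 28.6% of the transporter genes. The median difference was 0.04 for the transporter genes and -0.01 for all genes. The levels of the groups did not overlap for 14 of the 35 transporter genes and for 46.4% of all genes. The genes that rose were Slc1a2, Slc43a1, Slc7a8, Slc3a2, Slc43a3, Slc1a5 and Slc6a9, and those that fell were Slc38a5, Slc36a2 and Slc7a5. By the methods' t-test at its unadjusted threshold 9 transporter genes were higher and 4 lower (37.1% beside 36.1% of all genes), and after adjustment only Slc3a2, Slc43a3, Slc36a2 and Slc38a5 passed (11.4% beside 10.9%). When the slide row was a block, it took up the 2 tail-suspension arrays of the second row. The difference was then that of tail-suspension replicate 1 alone from the 3 sham arrays, and not an estimate from all 6 arrays. In that fit it was 0.94 for Slc3a2, 0.84 for Slc43a3, -1.18 for Slc36a2 and -2.91 for Slc38a5. With each array left out in turn, Slc1a5 was lost without sham replicate 2 or tail-suspension replicate 3, Slc6a9, Slc7a8 and Slc7a5 under several omissions given below, and the other 6 were past the threshold each time. Fewer of all genes passed as well, with 3.47% higher and 2.97% lower without sham replicate 2, and 3.97% and 3.52% without tail-suspension replicate 3. For dim genes the size of the difference depended on the background correction. The normexp setting adds an offset of 50, which exceeds some of their intensities and by itself shrinks a log2 difference. With it the difference was 0.44 for Slc1a2, 0.61 for Slc43a1 and -1.12 for Slc38a5, all past the threshold, and 0.28 for Slc7a8 (limma adjusted p = 0.184).

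**Figure D2:**
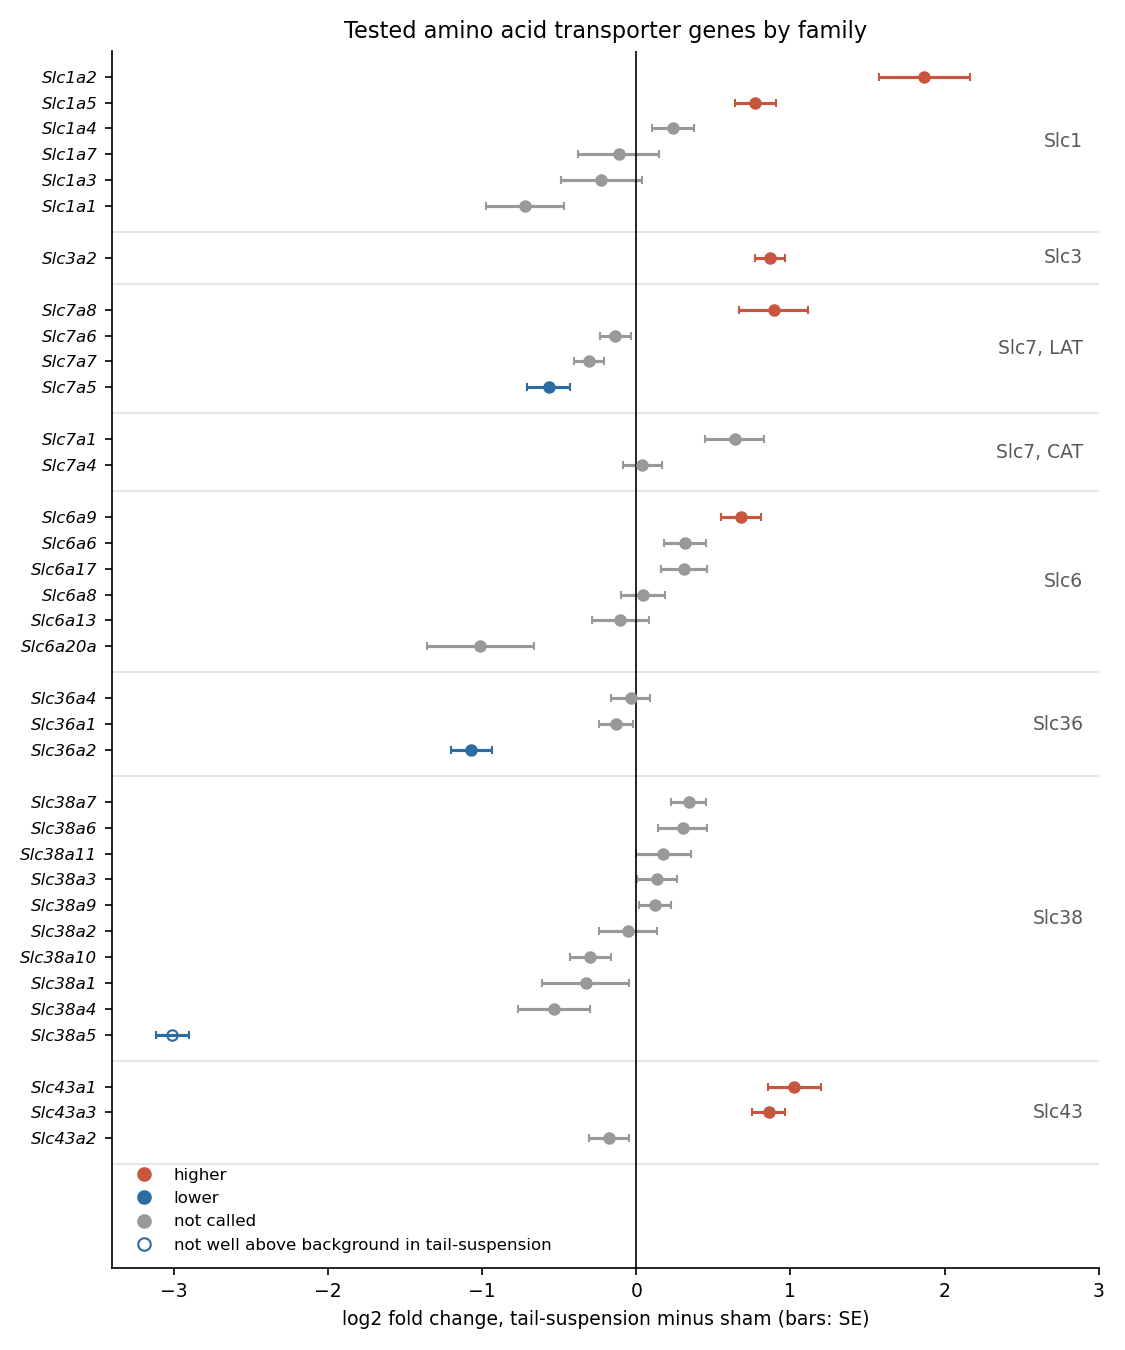
Log2 fold change (horizontal axis, tail-suspension minus sham) of the 35 tested transporter genes, grouped by family, with bars of 1 standard error from the limma fit (n = 3 arrays a group). The 10 genes past the threshold lie at -0.57 or below or at 0.68 or above, and the value of Slc38a5 is drawn open because its tail-suspension arrays were not well above background.

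The Slc1 family holds the sodium-driven glutamate carriers and the neutral amino acid exchangers ASCT1 and ASCT2. Of its 7 genes 6 were tested, 2 rose and none fell (33.3% beside 21.2% of all genes). Slc1a5, which encodes the glutamine exchanger ASCT2, had intensities of 853, 795 and 982 in sham and of 1753, 1620 and 1811 in tail-suspended hearts. The lowest tail-suspension array was well above the highest sham array. The difference was 0.77 (SE 0.13, limma adjusted p = 0.0133), or 1.71-fold, and a second probe that lies 332 bases away differed by 0.82 (SE 0.15, limma adjusted p = 0.0171). The adjusted p of the first probe was 0.0534 without sham replicate 2 and 0.0507 without tail-suspension replicate 3.

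Slc1a2, the glial glutamate carrier GLT-1, was dim in the heart, and of its 3 probes the other two were well above background on no array, so its values rest on 1 probe. The intensities of this probe were 16.0, 21.0 and 10.9 in sham, where 2 of 3 arrays were well above background, and 62.0, 48.2 and 92.3 after tail-suspension. The groups did not overlap, and the difference was 1.87 (SE 0.30, limma adjusted p = 0.0107). Slc1a4, the exchanger ASCT1, differed by 0.24 (SE 0.14, adjusted p = 0.249). Slc1a1, the neuronal and epithelial glutamate carrier, is represented by 10 spots on each array and had intensities of 91.4, 114 and 102 in sham and 99.5, 54.6 and 67.2 in tail-suspended hearts. Its groups overlapped through tail-suspension replicate 1, and the difference of -0.72 (SE 0.25) did not pass (limma adjusted p = 0.0885). With each array left out in turn, the adjusted p lay between 0.0222, without that replicate, and 0.224. With the slide row as a block, which leaves tail-suspension replicate 1 alone against sham, the difference was -0.15. Slc1a3 and Slc1a7 differed by -0.23 and -0.11, each with an SE of 0.26.

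Slc3a2 encodes the heavy chain 4F2hc (CD98), with which many LAT light chains form their exchangers. Its intensities were 3258, 3270 and 3407 in sham and 6867, 6705 and 7419 in tail-suspended mouse hearts. The arrays within each group differed little and the groups lay far apart. The log2 level rose from 3.40 ± 0.09 to 4.26 ± 0.10 (SD, n = 3 each), a difference of 0.87 (SE 0.09, limma adjusted p = 0.0038) or 1.82-fold. Leaving aside the slide row as a block, it passed the threshold under every alternative setting that refits or rescales the data. Among the transporter genes that rose, only Slc43a3 did so as well. The probe lies at chr19:8782189-8782248 on the minus strand (mm9) and is shown by its first 30 bases because the call for the heavy chain rests on this probe alone.
Slc3a2: gagggcttgctgttacagttcccctttgtg

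Light chains give the heteromeric exchangers their substrate. Of 10 light chain genes 4 were tested: Slc7a8 rose, Slc7a5 fell and Slc7a6 and Slc7a7 did not pass (50% beside 21.2% of all genes). Slc7a8, the light chain LAT2 for neutral amino acids, had intensities of 41.4, 33.1 and 39.0 in sham and 65.1, 68.7 and 118 after tail-suspension. Tail-suspension replicate 3 was the brightest in every one of its spots, with a range of 111 to 127 against 57.3 to 80.1 on the other tail-suspension arrays. The difference was 0.89 (SE 0.23, limma adjusted p = 0.0374), and it fell to 0.64 without that replicate (adjusted p = 0.0523). It passed without tail-suspension replicate 2 (adjusted p = 0.0365), and missed the threshold also without sham replicate 1, 2 or 3 or tail-suspension replicate 1, where the adjusted p lay between 0.0612 and 0.123. Slc7a7 and Slc7a6, the light chains y+LAT1 and y+LAT2 that exchange cationic for neutral amino acids, differed by -0.31 (SE 0.10, limma adjusted p = 0.0685) and -0.14 (SE 0.10, adjusted p = 0.357). The read probes of Slc7a7 and Slc7a8 lie 352.0 kb apart on chromosome 14, and of these neighbours only Slc7a8 passed.

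Slc7a5 encodes LAT1, the light chain that carries leucine and other large neutral amino acids, and its probes went in opposite directions. By the brighter probe, the log2 levels were -1.44, -1.73 and -1.37 in sham and -2.18, -1.87 and -2.20 after tail-suspension. These groups did not overlap, and the difference was -0.57 (SE 0.14, limma adjusted p = 0.0359). By the other probe, the log2 levels were -3.38, -3.69 and -3.07 in sham and -2.93, -3.07 and -2.93 after tail-suspension. Here the tail-suspension arrays were higher on average, with an overlap, and the difference of 0.40 (SE 0.16) did not pass (limma adjusted p = 0.12). The mean of both probes differed by -0.08 (adjusted p = 0.681). The gap between the probes narrowed from 1.87 ± 0.15 to 0.89 ± 0.26 (SD, n = 3 each; exact two-sided permutation p = 0.1, the smallest possible). The fall by the brighter probe did not pass without sham replicate 1, 2 or 3 (limma adjusted p = 0.106, 0.052 and 0.085) nor without tail-suspension replicate 1 or 3 (0.0977 and 0.11).

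Both Slc7a5 probes are assigned to the same transcript in the array design, and both map to the minus strand of mm9, at chr8:124430996-124431055 for the brighter and chr8:124405136-124405195 for the other, 25860 bases apart. The files do not say which exon or untranslated part a probe covers. The first 30 bases of each are given because the direction of the gene depends on them.
Slc7a5 brighter probe: tagtcttcgccacctacttgctcaagccgg
Slc7a5 other probe: gtggttataatgtcttttactattgtatta

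**Figure D3:**
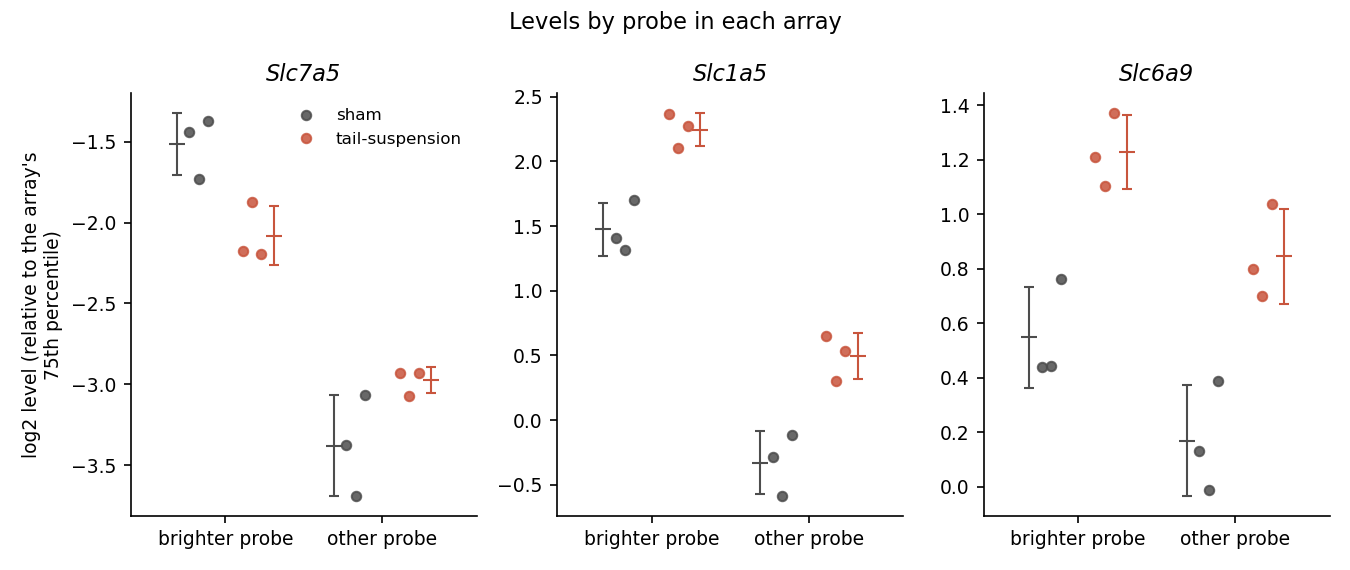
Log2 level relative to the 75th percentile of the array (vertical axis, a separate scale for each gene) by the brighter and the other probe of Slc7a5, Slc1a5 and Slc6a9, with a point for each array and the mean ± SD of 3 arrays beside the points. The probes of Slc1a5 and Slc6a9 rose together, whereas those of Slc7a5 moved in opposite directions.

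Across the 7 transporter genes with several tested probes, all probes had the same sign in 4 (57.1%), beside 74.9% of 3924 such genes on the whole array. The exceptions were Slc7a5, Slc38a1 and Slc38a9, and of these only Slc7a5 had a probe past the threshold. The probes of Slc6a9 share 51 of 60 bases, so that they do not check each other independently.

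The cationic carriers of the Slc7 family take up arginine and lysine. Of 5 genes 2 were tested and neither passed, beside 21.2% of all genes. Slc7a1, the widely expressed carrier CAT1, had intensities of 5224, 3867 and 4759 in sham and 6008, 9798 and 9570 in tail-suspended hearts. Tail-suspension replicate 1 lay nearest to sham, although the groups did not overlap. The difference was 0.64 (SE 0.19, limma adjusted p = 0.0589), and without that replicate it was 0.82 (adjusted p = 0.0347). Without it, however, group and slide row coincide. With each array left out in turn, the adjusted p reached 0.169, and over all alternative settings it reached 0.465. Slc7a4, an orphan member of the branch, differed by 0.04 (SE 0.13).

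The Slc6 family couples uptake to sodium and chloride. Of 19 genes 6 were tested, of which 1 rose and none fell (16.7% beside 21.2% of all genes). Slc6a9, the glycine carrier GlyT1, had intensities of 437, 435 and 511 in sham and 788, 808 and 972 in tail-suspended hearts. The groups did not overlap, and the difference was 0.68 (SE 0.13, limma adjusted p = 0.0171), or 1.60-fold. The adjusted p was 0.0587 without sham replicate 1, 0.07 without sham replicate 2 and 0.0605 without tail-suspension replicate 3. The creatine carrier Slc6a8 had intensities of 17755, 17841 and 14606 in sham and 20256, 16881 and 22977 in tail-suspended hearts. These ranges overlapped, and the difference of 0.04 (SE 0.14, limma adjusted p = 0.846) turned to -0.01 under quantile normalization. The taurine carrier Slc6a6 differed by 0.32 (SE 0.14, adjusted p = 0.138) and Slc6a17, a neutral amino acid carrier of synaptic vesicles, by 0.31 (SE 0.15, adjusted p = 0.17). Slc6a20a, the proline carrier, varied most among the arrays, with intensities of 167, 85.1 and 105 in sham and 48.2, 108 and 54.2 after tail-suspension. Its tail-suspension replicate 2 lay within the sham range, and the difference of -1.01 (SE 0.35) did not pass (limma adjusted p = 0.0828). With each array left out in turn, the adjusted p lay between 0.0283, without that replicate, and 0.213. Slc6a13, a GABA and taurine carrier, differed by -0.10 (SE 0.19).

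Proton-coupled carriers of the Slc36 family export or take up small neutral amino acids. Of 4 genes 3 were tested and 1 fell (33.3% beside 21.2% of all genes in either direction). Slc36a2, the carrier PAT2 for glycine, proline and alanine, had intensities of 2633, 2188 and 2252 in sham and 1125, 1582 and 1225 in tail-suspended mouse hearts. Every tail-suspension array was below every sham array, and the log2 level dropped from 2.90 ± 0.13 to 1.83 ± 0.21 (SD, n = 3 each), a difference of -1.07 (SE 0.13, limma adjusted p = 0.00543) or 2.10-fold. Its probe covers chr11:54972134-54972193 on the minus strand (mm9), and its first 30 bases are printed because it carries the larger of the falls that both groups measured above background.
Slc36a2: gcaatgaacatcttctgttacctgtcgggc
The neighbouring Slc36a1, the lysosomal and plasma membrane carrier PAT1, whose read probe lies 75.2 kb away on the same chromosome, differed by -0.13 (SE 0.11, limma adjusted p = 0.42), and Slc36a4 by -0.04 (SE 0.13).

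The Slc38 family carries glutamine and other neutral amino acids with sodium, and some members lie in the lysosome. Of 11 genes 10 were tested, 1 fell and none rose (10% beside 21.2% of all genes). Slc38a5, the glutamine carrier SNAT5, had intensities of 68.6, 74.5 and 61.6 in sham, well above background on all 3 arrays, and of 9.80, 10.6 and 9.03 after tail-suspension, above background on none. Its level in tail-suspended hearts is therefore known only as a bound. With the lowest level well above background on each of those arrays in its place, the gene was 4.71-fold lower. That fold is not a strict minimum, as the difference was -1.12 with normexp. The fitted difference was -3.01 (SE 0.11, limma adjusted p = 3.0e-04), and this call held under every alternative setting in which the probe was tested. The probe at chrX:7857241-7857300 on the plus strand (mm9) is shown by its first 30 bases because this is the largest difference among the transporters.
Slc38a5: cctagatgaagctgttagggttaccctggc

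The other 9 tested Slc38 genes did not pass. Slc38a2, the carrier SNAT2 and a known ATF4 target, had intensities of 7811, 10431 and 6768 in sham and 10430, 9039 and 8080 in tail-suspended hearts, which overlapped throughout, with a difference of -0.06 (SE 0.19). Slc38a1 and Slc38a4, which lie beside Slc38a2 on chromosome 15, differed by -0.33 (SE 0.28) and -0.53 (SE 0.23, limma adjusted p = 0.143). With each array left out in turn, the adjusted p of Slc38a4 lay between 0.0484, without sham replicate 1, and 0.302. The lysosomal carriers Slc38a7 and Slc38a9 differed by 0.34 (SE 0.11, limma adjusted p = 0.0762) and 0.12 (SE 0.10). Slc38a3, the system N carrier SNAT3, differed by 0.13 (SE 0.13), Slc38a6 by 0.30 (SE 0.16), Slc38a11 by 0.18 (SE 0.18) and Slc38a10 by -0.30 (SE 0.14).

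The Slc43 family comprises sodium-independent facilitated carriers, and 2 of its 3 genes rose, beside 10.6% of all genes. A family of 3 genes is too small to set against that share. Slc43a1, the carrier LAT3 for branched-chain and other large neutral amino acids, had intensities of 96.6, 73.0 and 99.1 in sham and 182, 196 and 256 in tail-suspended mouse hearts. The difference was 1.03 (SE 0.17, limma adjusted p = 0.0129), or 2.03-fold. Slc43a3, which has been described as a carrier of purine nucleobases, had intensities of 3214, 3026 and 3515 in sham and 6286, 6911 and 7269 in tail-suspended hearts, a difference of 0.86 (SE 0.10, limma adjusted p = 0.0052) or 1.81-fold. Neither gene's groups overlapped. The read probes of both genes lie 94.4 kb apart on chromosome 2 (mm9), at chr2:84703578-84703637 and chr2:84797987-84798046 on the plus strand. The third member, Slc43a2 or LAT4, differed by -0.18 (SE 0.13, limma adjusted p = 0.355).

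**Figure D4:**
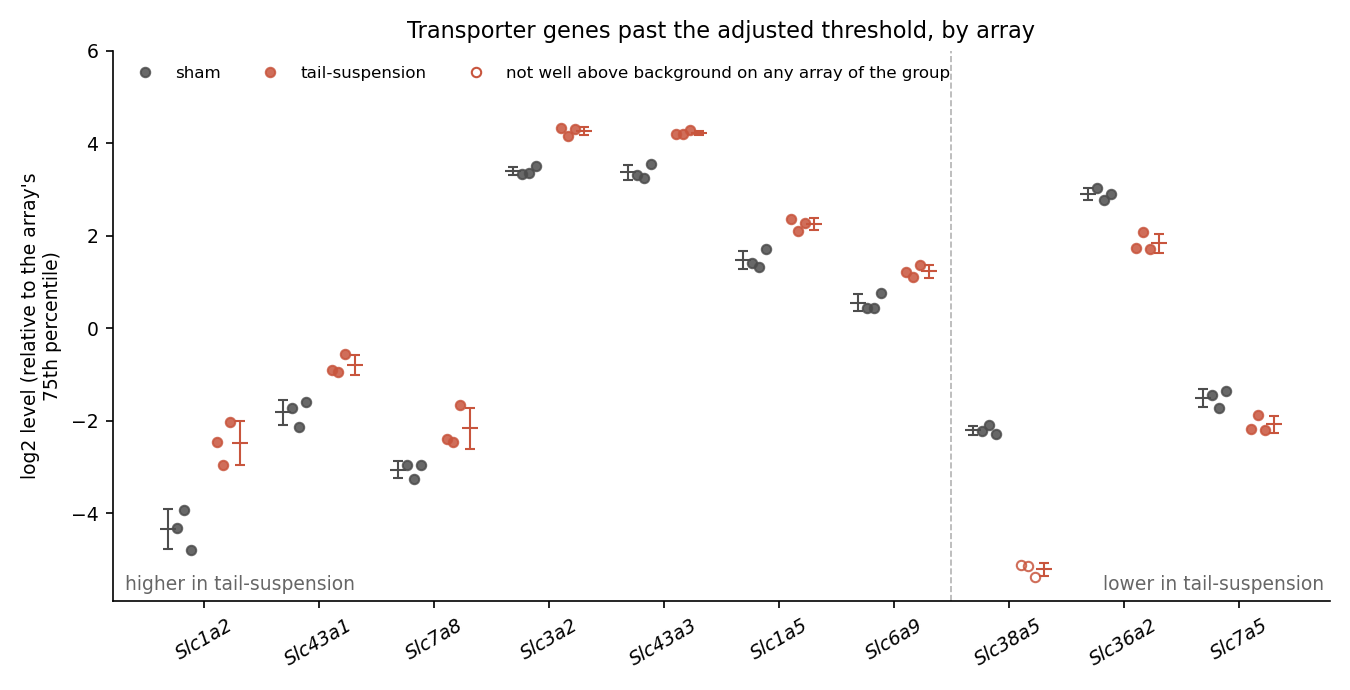
Log2 level relative to the 75th percentile of the array (vertical axis) of the 10 transporter genes past the adjusted threshold, with a point for each of 3 arrays a group and the mean ± SD beside them. The groups do not overlap for any of the 10 genes, which also holds for 46.4% of all genes tested. The open points of Slc38a5 were not well above background. Heights of different genes are not comparable because each has its own probe.

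The 25 genes that did not pass had a median absolute difference of 0.23, with 11 above 0 and 14 below. Their standard errors ran from 0.10 to 0.35. The groups did not overlap for 4 of them, Slc7a1, Slc7a7, Slc38a7 and Slc38a10, beside 46.4% of all genes tested, called or not. The opposite-strand gene Slc7a6os differed by 0.11 (SE 0.13, limma adjusted p = 0.572).

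In whole heart tissue, fewer cells of a type and less RNA per cell cannot be told apart. Some of these carriers are known from red cell precursors (Slc6a9, Slc38a5), fat cells (Slc36a2) or endothelium (Slc43a3, Slc7a1), and the markers of those cells were measured beside them. None of the 5 tested erythroid markers passed, and their median difference was -1.50, with a range of -1.62 to 0.69. The summed level of the list, in multiples of the 75th percentile of the array, was 428 to 689 in sham and 106 to 344 in tail-suspension. The erythroid marker Epb4.2 was above background on no array. Tail-suspension replicate 2 had the highest erythroid signal of its group, with an Alas2 intensity of 1952 against 478 and 770. Slc38a5 was well above background on none of these arrays, so its values there cannot be set against the erythroid signal. Of 7 adipocyte markers 3 were tested and 1, Pparg, rose, with a summed level of 153 to 172 in sham and 181 to 199 in tail-suspension. Adipoq was above background on 1 array of each group and Lep on none. Of 7 endothelial markers Vwf rose (0.99, SE 0.10), Kdr, Emcn and Tie1 fell, and the summed level was 56.6 to 61.7 in sham and 63.5 to 67.8 in tail-suspension. Over all genes tested, 21.2% passed in either direction. The part of these cells in the transporter values was not tested.

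Among the other cell types, 4 of 7 tested neutrophil markers and 1 of 6 macrophage markers rose, 1 of 8 cardiomyocyte markers (Actc1), 1 of 7 smooth muscle and pericyte markers, 2 of 6 Schwann cell and nerve markers and 2 of 4 lymphocyte markers fell, and none of 7 fibroblast and 3 platelet markers passed. Of all genes tested, 21.2% passed in either direction. The median difference of the tested neutrophil markers was 4.62, with a range of -0.30 to 5.42, and the groups did not overlap for any of the 7, nor for 46.4% of all genes. The neutrophil genes S100a8, S100a9, Retnlg and Ltf rose by 4.80, 4.62, 5.42 and 4.74, while the brightest of the list, Csf3r, did not pass (limma adjusted p = 0.0926). The summed neutrophil level was 144 to 172 in sham and 208 to 238 in tail-suspension, that of macrophages 26.5 to 35.4 and 29.7 to 46.1, and that of cardiomyocytes 4751 to 5051 and 4296 to 4471. Their part in the transporter values was not tested either.

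The other genes of amino acid handling were read from 6 lists. Of 26 tested genes of the amino acid response, which ATF4 drives when amino acids are scarce or the endoplasmic reticulum is stressed, 7 rose and none fell (26.9% beside 21.2% of all genes), with a median difference of 0.15 beside -0.01 for all genes. Chac1, which degrades glutathione, had intensities of 278, 196 and 408 in sham and 861, 1294 and 1316 in tail-suspended hearts, a difference of 1.80 (SE 0.29, limma adjusted p = 0.0115). Cebpb, a transcription factor, rose by 1.29 and Eif4ebp1, an inhibitor of translation initiation, by 0.91. Atf4 itself (0.16), Ddit3 (-0.09) and asparagine synthetase, Asns (0.14), did not pass. With each array left out in turn, 3 of the 7 genes (Chac1, Eif4ebp1 and Psat1) passed every time.

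Of 36 tested genes of amino acid sensing by the growth kinase complex mTORC1, 5 rose and 1 fell (16.7% beside 21.2% of all genes), with a median of -0.01. Castor1, the arginine sensor that holds mTORC1 in check and is listed on the array as Gatsl3, had intensities of 51.2, 42.6 and 53.9 in sham and 122, 121 and 139 after tail-suspension, a difference of 1.16 (SE 0.13, limma adjusted p = 0.00414). Sesn1, of the leucine sensor family of sestrins, rose by 1.06 (SE 0.15, adjusted p = 0.00813) and Fnip2, a partner of folliculin, by 0.80. Kptn, a subunit of the KICSTOR complex, fell by 0.44. With each array left out, Castor1, Sesn1 and Flcn passed every time.

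Of 19 tested enzymes of glutamine, glutamate and arginine, 4 rose and 3 fell (36.8% beside 21.2% of all genes). Their median was -0.09, and 6 of these 7 passed with each array left out. Glul, glutamine synthetase, had intensities of 9514, 6335 and 6544 in sham and 21243, 23775 and 27593 in tail-suspended hearts, a difference of 1.50 (SE 0.17, limma adjusted p = 0.00383). Prodh, which begins proline breakdown, rose by 1.14, and Asl, which releases arginine, by 0.92. Ddah1, which breaks down methylarginines that inhibit nitric oxide synthases, fell by 1.73, the inducible synthase Nos2 by 1.39 and the alanine aminotransferase Gpt2 by 0.72.

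Of 25 genes of branched-chain amino acid breakdown, 1 rose and 3 fell (16% beside 21.2% of all genes), with a median of -0.09. Klf15, a transcription factor that is known to raise this pathway in muscle, rose by 0.95 (SE 0.21, limma adjusted p = 0.0284), while Acad8, of valine breakdown, fell by 1.13, Hibch, of the same route, by 0.47 and Dld, a shared subunit of the keto acid dehydrogenases, by 0.46. Only Acad8 passed with each array left out. Of 12 tested genes of creatine and taurine handling, 1 rose and 4 fell (41.7% beside 21.2% of all genes), with a median of -0.19. Cdo1, which starts taurine synthesis from cysteine, had intensities of 16.6, 24.5 and 18.6 in sham and 163, 117 and 399 after tail-suspension, a difference of 3.12 (SE 0.43, limma adjusted p = 0.00735) that was 1.45 with normexp. Gatm and Gamt, the successive enzymes of creatine synthesis, fell by 1.60 and 0.84, Gatm being above background on only 1 tail-suspension array, and Akr1b3, aldose reductase, fell by 0.66. Of 12 tested amino acid carriers outside the 7 families, none rose and 2 fell (16.7% beside 21.2% of all genes). These were Slc25a13, the mitochondrial aspartate and glutamate carrier, by 0.52 and Slc16a10, the aromatic amino acid carrier TAT1, by 0.48, and neither passed with each array left out.

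**Figure D5:**
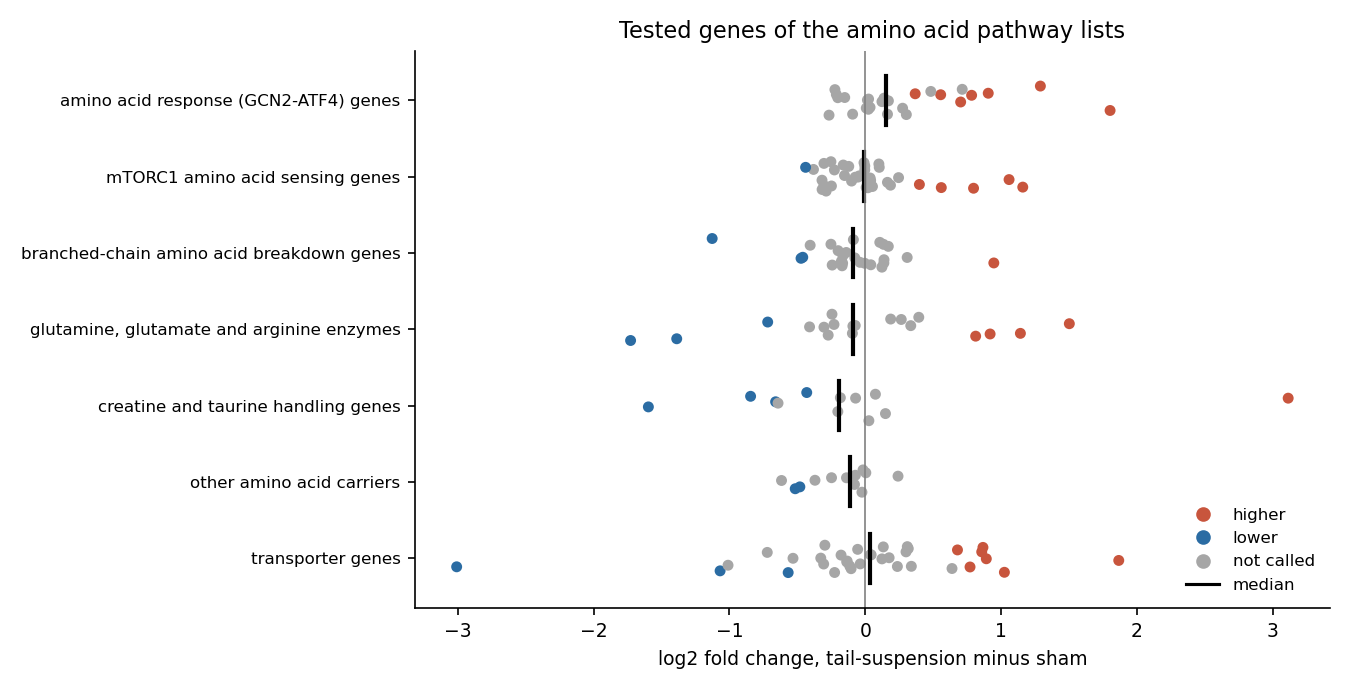
Log2 fold change (horizontal axis, tail-suspension minus sham) of each tested gene in the 6 lists and of the 35 transporter genes, coloured by call, with the median of each list as a black line. The medians lay between -0.19 and 0.15, while single genes such as Cdo1 and Slc38a5 lay far outside.

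Promoters were looked at because several of these genes are known targets of stress and growth factors. The RefSeq table (GRCm38.p6) gave 63 promoters of 300 bases for 43 of the 61 transporter genes, among them 5 of the 7 that rose (not Slc1a5 and Slc43a3) and 1 of the 3 that fell (Slc38a5). Searched on both strands, the core of the amino acid response element, TGATGNAA, was found in 4 of the 63 transporter promoters (6.35%) and 3.97% of all 32851. Some genes have several promoters, so these are not counts of genes. The E-box CACGTG was found in 9 transporter promoters (14.3%) and 7.15% of all, and the palindromic glucocorticoid response element in 1 (1.59%) and 0.475%. The genes that rose had 7 promoters and those that fell had 1. None of these held TGATGNAA or the glucocorticoid element, but they are too few to set against the shares above. An E-box lay before the start of Slc43a1, which rose, and of Slc38a5, which fell, at chr2:84840219-84840304 and chrX:8271311-8271380 (GRCm38.p6, plus strand). Both stretches are shown, with the E-box in capitals, because the same letters stand before genes that moved in opposite directions.
Slc43a1: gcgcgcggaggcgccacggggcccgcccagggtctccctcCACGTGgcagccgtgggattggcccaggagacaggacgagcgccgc
Slc38a5: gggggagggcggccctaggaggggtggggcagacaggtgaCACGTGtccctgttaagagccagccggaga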

How the data were processed

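The authors deposited the output of Agilent Feature Extraction 10.7.1.1 for each of the 6 arrays, in which every spot has an intensity as measured, one for its background and a processed one. The deposited value table is on the log2 scale, and each of its columns correlated above 0.999 with the array it belongs to. No normalization is given in the sources used here.

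From the processed intensity, log2 values were computed and the 75th percentile of their array subtracted. Spots flagged as controls or outliers were dropped and replicate spots averaged. A probe was well above background where at least 50% of its spots were. Groups were compared in R 4.3.3 with limma 3.58.1 (lmFit, eBayes, no covariate) on 28032 probes, with Benjamini-Hochberg adjustment. A gene was read from its probe with the highest mean.

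The members, the 8 families, the 6 pathway lists, the 11 marker lists and the motifs were chosen with earlier results of these data known, so their counts are descriptions. Of 223 list genes 221 were on the array. A few genes of the members and lists are not reported here. Every member past the threshold is named with its values, most others by their difference or detection, and of each list up to 3 genes in each direction; other genes named from the lists, such as Atf4, Psat1, Flcn and single cell type markers, were chosen after their values were seen.

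The alternatives were the following. The signal was corrected by normexp (offset 50), scaled by quantiles or by the percentile of detected probes, or taken from the deposited log2 table. Dim probes were all kept or held to all 6 arrays, and outlier spots kept. The model had a trend and robust variances, weights for arrays, the replicate number or the slide row as a block, or gave way to the methods' t-test. A gene was the mean of its probes, a 2-fold change was required, or 1 array was omitted. Slide was not a block, since there was 1 slide. The steps were tested on simulated data of 28003 probes for tail-suspension against sham. In these, 100 probes had a log2 change of 1 and 100 a change of 2, with independent normal noise and no effect of slide row. The steps called 68% of changes of 1, 90% of changes of 2 and 10 unchanged probes. A far smaller share of probes was changed than was called here, so these shares are not the power of this comparison. Probe coordinates are those of the files (mm9), and promoters those of RefSeq (GRCm38.p6); the 2 builds were not mixed.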

Additional observations from a re-analysis of the deposited data

How the results depend on the processing

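Of the 7 transporter genes called higher, the count fell to 2 by the methods' t-test and 2 with a 2-fold minimum, and ranged from 4 to 8 with 1 array left out. Of the 3 called lower, it moved to 5 with normexp and ranged from 2 to 4 with 1 array left out. The fit with the slide row as a block rests on 1 tail-suspension array, so its counts are not given. Of all genes, 10.6% were higher and 10.5% lower in the main fit. These shares were 9.98% and 10.3% with normexp, 5.56% and 5.3% by the t-test and 6.01% and 5.43% with the replicate block. With 1 array left out they ranged from 3.47% to 10.4% and from 2.97% to 9.65%. Under the replicate block, 7 genes were higher and 2 lower (Slc7a5 was lost, adjusted p = 0.0928), and same-numbered arrays share only a number, as their deviations correlated at -0.02, -0.018 and 0.05. Among alternative fits, none of the 10 called genes changed sign, and the threshold was missed in 24 of 132 for the genes that rose and 11 of 56 for those that fell. Uncalled genes passed it in 10 of 493 and changed sign in 30. By array weights these were Slc1a3 (0.010), Slc1a7 (0.11), Slc36a4 (0.016) and Slc6a13 (0.011). With the row as a block, each difference is that of tail-suspension replicate 1 alone from the sham mean. The sign changes there were Slc1a3 (0.14), Slc1a7 (0.31), Slc38a2 (0.23), Slc38a3 (-0.069), Slc6a13 (0.13), Slc7a4 (-0.21), Slc7a6 (0.013) and Slc7a6os (-0.10). By normexp the genes that changed sign were Slc38a11 (-0.058) and Slc6a17 (-0.010), by the mean over probes Slc38a9 (-0.080), and Slc6a8 by quantiles (-0.011) and by the deposited log2 values (-0.013). With 1 array left out, the difference ranged from -0.41 to 0.029 for Slc1a3, -0.33 to 0.17 for Slc1a7, -0.11 to 0.060 for Slc36a4, -0.013 to 0.30 for Slc38a11, -0.20 to 0.11 for Slc38a2, -0.22 to 0.10 for Slc6a13, -0.038 to 0.19 for Slc6a8 and -0.042 to 0.16 for Slc7a4. The cause was not tested. Signals near background (Slc38a5, Slc1a2) limit how well the size of a difference is known.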
